A study of Drosophila melanogaster with 48 samples.

Results

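The genes described here are 41 synaptic and neuronal excitability genes of Drosophila melanogaster, out of 13922 protein-coding genes. They were chosen by name and function, by a rule that uses no measured value, but with earlier results of these data known. They encode neuronal RNA-binding proteins, the machinery that releases synaptic vesicles, voltage-gated channels, the enzymes and transporters of neurotransmitters, and transmitter receptors. All 41 were found in the gene table of the assembly dm6, on which all positions below are given. For each gene, peaks were counted whose summit lay in the gene or within 2 kb of either end.

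The measurements are CUT&RUN peaks of Zelda (Zld) in brains of L3 larvae. In CUT&RUN a nuclease tethered to an antibody releases the DNA around the bound protein. Of 48 samples in the series, 4 are brain samples with an antibody against Zld. They form 2 conditions of 2 replicates each, named by their titles UAS-HA-Zld and brat. Both conditions carry 1 and the same genotype label, so the assignment to conditions rests on the titles. That label gives the allele brat11 over DF, the temperature-sensitive Gal4 repressor Tub-Gal80ts, the transgene UAS-HA-Zld, which encodes HA-tagged Zld, and the driver WorGal4, which is active in neuroblasts. By the labels of both conditions, flies were reared at 25°C, while the larvae stayed at 18°C and then at 33°C for 24 h, and 50 brains were pooled for each reaction. The 24 h at 33°C are labelled as the induction of Zld in both, and whether the brat brains carried or induced the transgene was not tested. The cell type label is type II neuroblast, but the material was whole brain, and a peak cannot be assigned to neuroblasts, neurons or glia. One peak list per condition was analysed, so there is no replicate spread and no test between the conditions.

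Zld is a pioneer transcription factor, best known in the early fly embryo, where it makes the chromatin of the earliest active genes accessible. Type II neuroblasts are stem cells of the larval brain whose daughters divide again as intermediate progenitors, and loss of the translational repressor brat lets stem cells accumulate. Synaptic and excitability genes are used by mature neurons, the end product of neuroblast lineages. Neurons fire through voltage-gated sodium, calcium and potassium channels, release transmitter by fusion of vesicles driven by SNARE proteins, and sense it with ligand-gated receptors.

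The lists held 9065 peaks in UAS-HA-Zld and 7644 in brat, with a median pileup at the summits of 208 and 147 fragments. The lowest background was 28.8 fragments in UAS-HA-Zld and 22.6 in brat. Peaks are numbered in running order, and 2191 numbers do not occur in the UAS-HA-Zld list and 1846 in the brat list, 19.5% in both cases. A peak is called unmatched below when it shares no base with any analysed peak of the other list. Where a number of the other list is absent between the neighbouring peaks there, a called peak may have stood at that place. Of 5 neuroblast marker genes, 5 had a peak in UAS-HA-Zld and 5 in brat, against 4 and 3 of 5 glial markers and 1 and 1 of 5 muscle markers. The shares over all protein-coding genes were 43.1% and 43.4%. Peaks of Zld do not measure expression, so these counts do not check the cell type.

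Fewer of the 41 genes carried unmatched Zld peaks in the UAS-HA-Zld list than in the brat list. Among 50 further synaptic and excitability genes, described below, the counts were close, 11 and 13. In the UAS-HA-Zld list 24 of the 41 genes had a peak and in the brat list 28, where 43.1% and 43.4% of all protein-coding genes had one, and 65.3% and 66.7% when these are weighted to the gene lengths of the 41. An unmatched peak was found at 4 of the 41 genes in UAS-HA-Zld and at 16 in brat, against 15.6% and 15.1% of all protein-coding genes, and 32.4% and 30.1% with the same weighting. The peaks summed over the genes were 54 in UAS-HA-Zld, of which 5 were unmatched, and 79 in brat, of which 31 were unmatched. Both lists marked 22 of the genes, 2 had a peak only in UAS-HA-Zld, 6 only in brat and 11 in neither. More peaks were counted in UAS-HA-Zld at 4 genes, more in brat at 16, and equal numbers at 10. How all protein-coding genes divide in these ways is not given here, so these splits are not read as a trait of the 41. Counted once each, all 5 unmatched UAS-HA-Zld peaks and 24 of 29 unmatched brat peaks lay where a number of the other list was absent, so the unmatched counts may include peaks that had a partner.

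**Figure D1:**
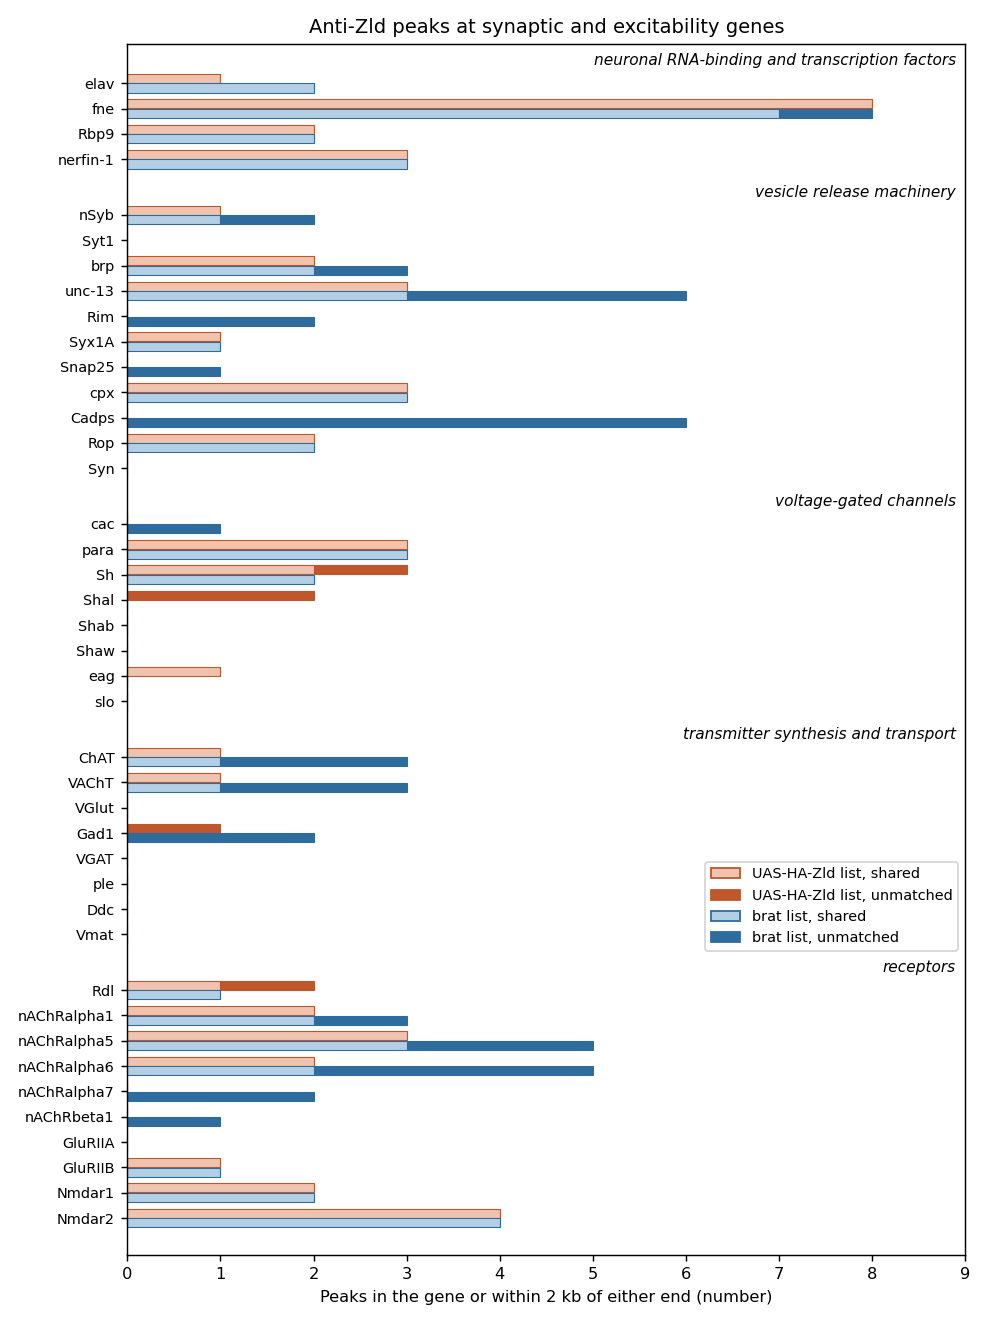
Number of anti-Zld peaks (x axis) at each of the 41 genes, grouped by role, in the UAS-HA-Zld list (upper bar, orange) and the brat list (lower bar, blue); pale parts are peaks that share bases with the other list and dark parts are unmatched. The gene fne has 8 peaks in each list, Cadps and unc-13 have 6 in brat, and dark orange appears at Sh, Shal, Gad1 and Rdl alone.

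Of the neuronal RNA-binding and transcription factor genes, all 4 had peaks in both lists, with 14 peaks in UAS-HA-Zld and 15 in brat. Of all protein-coding genes 43.1% had a peak in UAS-HA-Zld and 43.4% in brat. The shares ran from 35.2% and 34.9% under 5 kb, the class of nerfin-1, to 72.5% and 73.2% from 20 to 50 kb, the class of fne. At elav, the pan-neuronal RNA-binding protein that sets neuronal splicing, the UAS-HA-Zld list held 1 peak of 8252 bp with 17 summits (X, 520053 to 528304). In brat 2 peaks counted for elav lay across part of that stretch, at 520026 to 521787 and 522195 to 525999. The strongest summit of the UAS-HA-Zld peak and of the first brat peak reached 1412 fragments in UAS-HA-Zld, a fold enrichment of 6.93, and 1349 fragments in brat, a fold of 9.53. These summits stood on almost the same base, 2.64 kb from the gene's end in both lists. The second brat peak had 692 fragments and a fold of 12.98 at its strongest summit, 0.986 kb outside elav. Fold enrichment is the authors' ratio of the pileup to the local background at that summit and ranks peaks only within its own list.

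The paralogue fne held more peaks than any other of the 41 genes, 8 in each list, all of them inside the gene. The peak with the most fragments in UAS-HA-Zld (X, 12938120 to 12938535) had 1100 fragments and a fold of 5.51, and the brat peak there (12938120 to 12938570) had 737 fragments and a fold of 5.25. A single fne peak was unmatched, in brat (12927693 to 12927957), with 78 fragments and a fold of 3.22. It lay 1.22 kb from the nearest UAS-HA-Zld peak, and no UAS-HA-Zld number was absent there. The third family member, Rbp9, had 2 shared peaks, with folds of 6.15 and 4.81 in UAS-HA-Zld and 3.46 and 3.31 in brat. At nerfin-1, a zinc-finger factor that keeps neurons differentiated, all 3 peaks were shared and had their strongest summits outside the gene. The strongest (3L, 907302 to 909571) had 1142 fragments and a fold of 11.02 in UAS-HA-Zld, the highest fold of all UAS-HA-Zld peaks at the 41 genes, and its brat counterpart (907269 to 909460) had 464 fragments and a fold of 6.44. The third, 1.87 kb from nerfin-1 in UAS-HA-Zld, stood 119 bp from the end of the neighbour Glut1, with folds of 4.08 in UAS-HA-Zld and 6.72 in brat.

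Vesicle release genes held 12 peaks in UAS-HA-Zld and 26 in brat. Of the 11 genes, 6 had a peak in UAS-HA-Zld and 9 in brat, and none had an unmatched peak in UAS-HA-Zld while 6 had one in brat. Of all protein-coding genes 43.1% and 43.4% had a peak, and 15.6% and 15.1% an unmatched one. From 20 to 50 kb these shares were 72.5% and 73.2%, and 37.4% and 31.9%. Shares weighted to gene length are not given for single role groups. Of the 14 brat-only peaks, 9 lay at the 2 genes on the small arm 4, Cadps and unc-13. Cadps, which primes dense-core vesicles, had no peak in UAS-HA-Zld and 6 in brat. Its strongest brat peak (4, 1260163 to 1260838) had 476 fragments and a fold of 15.4, the highest fold of all brat peaks at the 41 genes. The one beside the gene (4, 1230483 to 1231341) had 305 fragments and a fold of 12.97 and stood 114 bp from the end of the neighbour Dyrk3. The other 4 had folds of 3.01 to 5.89.

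The last UAS-HA-Zld peak analysed on this arm ended at 1182244, before Cadps begins, while brat peaks ran to 1276849. Between that peak and the first on the X chromosome 3 UAS-HA-Zld numbers were absent, fewer than the 6 brat peaks at Cadps. But 1 peak can overlap several of the other list, as at elav, so these counts cannot decide how many of the 6 had a partner. unc-13, a vesicle priming factor, had 3 peaks in UAS-HA-Zld, all shared, and 6 in brat, of which 3 were unmatched. Its shared site with the highest fold in each list had 223 fragments and a fold of 5.39 in UAS-HA-Zld (904614 to 905618), and 319 fragments and a fold of 13.6 in brat (903853 to 906116). The unmatched brat peaks stood 1.23, 11.1 and 11.6 kb from the gene's end, with folds of 2.37, 3.97 and 8.61, in a stretch where 2 UAS-HA-Zld numbers were absent. On the whole arm 11 of 88 UAS-HA-Zld peaks were unmatched, which is 12.5%, and 66 of 137 brat peaks, which is 48.2%. The part of this arm-wide difference in the counts at Cadps and unc-13 was not tested.

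Other release genes had shared peaks. nSyb, the vesicle SNARE synaptobrevin, had a strong shared peak with 1026 fragments and a fold of 6.81 in UAS-HA-Zld (3L, 1626929 to 1628666) and 893 fragments and a fold of 8.41 in brat (1627836 to 1628671). That summit lay 1.97 kb outside nSyb and 3 bp from an end of CG13928 in UAS-HA-Zld, so it belongs to the window of nSyb by a narrow margin. A weak brat peak inside nSyb (1637209 to 1637435, fold 2.06) was unmatched, and 2 UAS-HA-Zld numbers were absent there. Rop, the Sec1/Munc18 protein that binds syntaxin, had 2 shared peaks in its window. The stronger one had 732 fragments and a fold of 6.01 in UAS-HA-Zld and 805 fragments and a fold of 9.95 in brat, and lay 139 bp from the end of ens in UAS-HA-Zld. The weaker had a fold of 3.38 in UAS-HA-Zld and 2.97 in brat and lay nearest to Ras64B.

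cpx, the complexin that clamps assembled SNAREs, carried 3 shared peaks inside the gene. Their folds were 3.78, 7.14 and 4.61 in UAS-HA-Zld, and 1.83, 2.28 and 2.27 in brat. The middle one (3R, 4284140 to 4285407 in UAS-HA-Zld) had 555 fragments in UAS-HA-Zld and 125 in brat. Syx1A, the syntaxin of the target membrane, had 1 shared peak with a fold of 5.08 in UAS-HA-Zld and 10.4 in brat. brp, the active zone scaffold, had 2 weak peaks in UAS-HA-Zld with folds of 1.51 and 1.61, and these were shared with brat, where a further peak of fold 2.16 was unmatched.

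Rim and Snap25 had peaks in brat only, both of modest strength. Rim, an active zone scaffold, had 1 brat peak inside the gene (3R, 17897859 to 17898305, fold 1.97) and 1 just outside it (17916766 to 17917063, fold 2.84), with 60 and 114 fragments. The peak of Snap25, a target-membrane SNARE, lay 67.5 kb from the nearest end of that 225 kb gene (3L, 24231628 to 24232100, fold 4.11, 96 fragments). At each of these genes 1 UAS-HA-Zld number was absent beside the peaks. Syt1, the calcium sensor of release, and the vesicle protein gene Syn had no peak in either list.

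**Figure D2:**
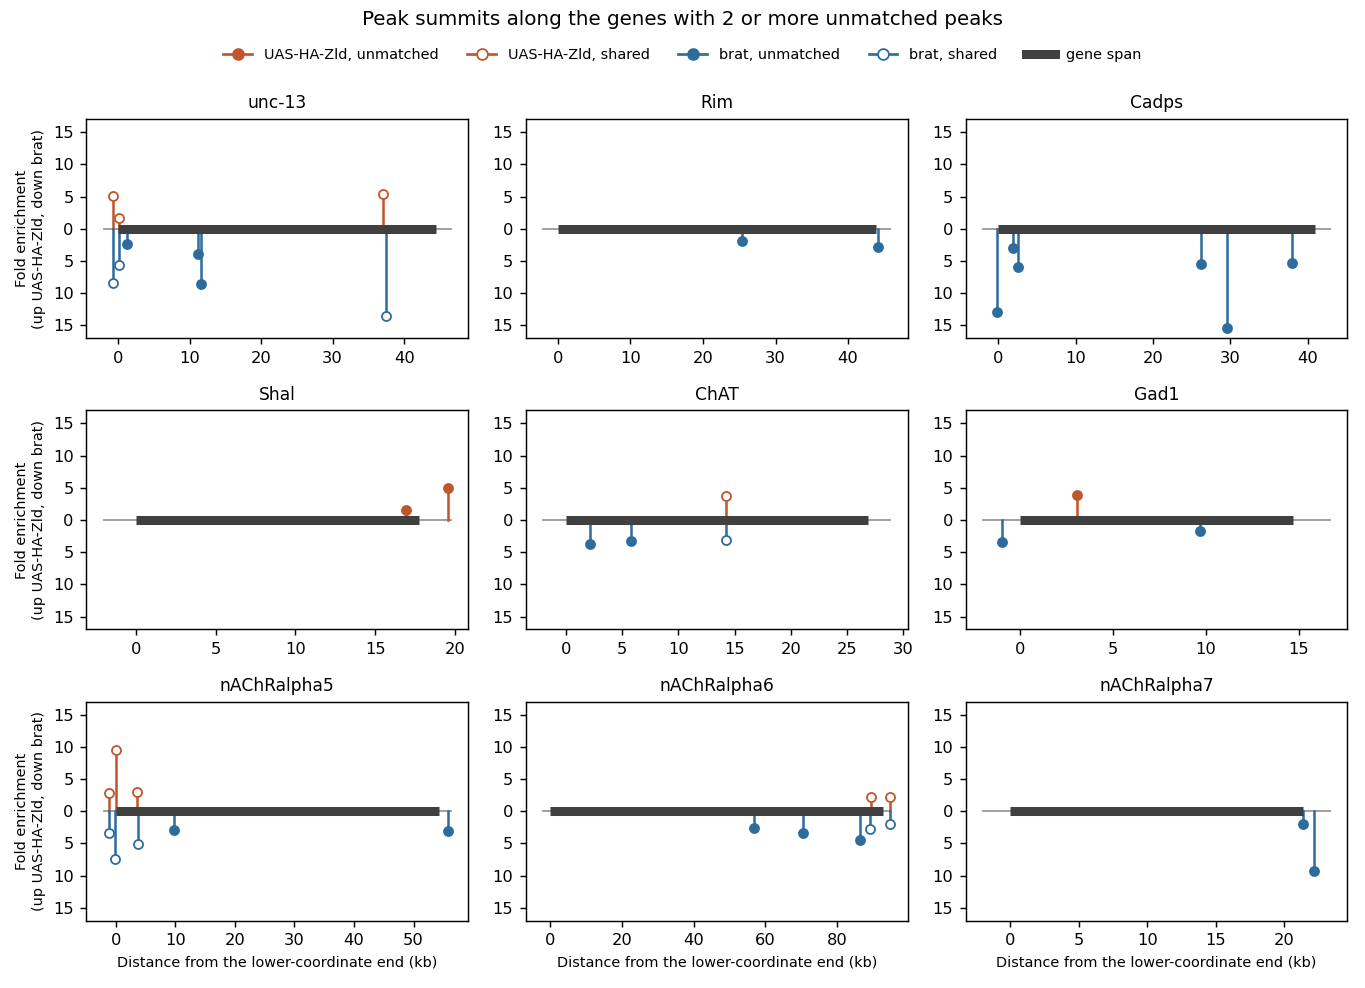
Summits of anti-Zld peaks along the 9 gene regions with 2 or more unmatched peaks in a list; VAChT, which shares its peaks with ChAT, is not drawn. The x axis is the distance in kb from the lower-coordinate end of the gene (dark bar), and stems show the authors' fold enrichment, upwards for UAS-HA-Zld and downwards for brat, filled where the peak is unmatched. Cadps and nAChRalpha7 have brat stems only and Shal has UAS-HA-Zld stems only.

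Voltage-gated channel genes were the one role group with more peaks in UAS-HA-Zld than in brat, 9 against 6. The 9 include a shared peak at eag whose brat partner had its summits just outside the window. They also include 3 unmatched peaks, at Sh and Shal, all where at least 1 brat number was absent. Of the 8 genes, 4 had a peak in UAS-HA-Zld and 3 in brat, against 43.1% and 43.4% of all protein-coding genes. From 50 kb, the class of cac, para, Sh, Shab and eag, these shares were 80.1% and 82.1%. They were 72.5% and 73.2% from 20 to 50 kb (slo), and 63.1% and 66.2% from 5 to 20 kb (Shal and Shaw). para, the sodium channel that carries the action potential, had 3 shared peaks near 1 end of the gene, with folds of 5.45, 2.37 and 3.01 in UAS-HA-Zld and 3.54, 1.93 and 3.13 in brat. The strongest (X, 16525621 to 16526704 in UAS-HA-Zld) had 569 fragments in UAS-HA-Zld and 263 in brat.

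Sh, the A-type potassium channel Shaker, had 3 peaks in UAS-HA-Zld and 2 in brat. Both lists held a peak 39.4 kb from the gene's lower end, with folds of 6.35 in UAS-HA-Zld and 6.01 in brat, and a weaker one just outside the gene, with folds of 1.84 in UAS-HA-Zld and 3.82 in brat. The third, at X, 18035838 to 18036325, was unmatched in UAS-HA-Zld, with 205 fragments and a fold of 4.13. Shal, a second potassium channel gene, had 2 peaks in UAS-HA-Zld and none in brat. The stronger (3L, 19586256 to 19586492) had 245 fragments and a fold of 4.96 and stood 127 bp from an end of CG9330, and the weaker inside the gene had a fold of 1.60. At Sh 1 brat number was absent beside the unmatched peak, and at Shal 4 were.

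eag, a potassium channel gene named for a leg-shaking mutant, was counted in UAS-HA-Zld only, but its peak was shared. The UAS-HA-Zld summit (X, 14953359 to 14953711, fold 3.03) lay 1.88 kb from the gene, while a summit of the overlapping brat peak lay 2.01 kb from it, just outside the window, with a fold of 5.52. cac, the presynaptic calcium channel, had 1 brat peak (X, 11981461 to 11982037) with 107 fragments and a fold of 3.93, none in UAS-HA-Zld, and 1 absent UAS-HA-Zld number beside it. Neither list held a peak at the potassium channel genes Shab, Shaw and slo.

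Of the 8 genes of transmitter synthesis and transport, 3 had a peak in each list, with 3 peaks in UAS-HA-Zld and 8 in brat. The shares of all protein-coding genes with a peak were 43.1% and 43.4%. These genes fall in the classes up to 50 kb, where the shares ran from 35.2% and 34.9% under 5 kb to 72.5% and 73.2% from 20 to 50 kb. ChAT makes acetylcholine and VAChT loads it into vesicles, and the 2 genes overlap, so they share their peaks. Both lists held a peak inside ChAT and 0.802 kb outside VAChT in UAS-HA-Zld (3R, 18719607 to 18720262), with 346 fragments and a fold of 3.73 in UAS-HA-Zld and 188 fragments and a fold of 3.04 in brat. In brat 2 further peaks were unmatched, at 18707452 to 18708019 with 220 fragments and a fold of 3.66, and at 18710889 to 18711392 with 119 fragments and a fold of 3.20. No UAS-HA-Zld number was absent there, so no called UAS-HA-Zld peak is missing at this place.

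Gad1, which makes GABA, had unmatched peaks in both lists, 1 in UAS-HA-Zld and 2 in brat. The UAS-HA-Zld peak (3L, 4076966 to 4077275) had 170 fragments and a fold of 3.94. The brat peaks (4072957 to 4073340 and 4083655 to 4083931) had 132 and 80 fragments and folds of 3.35 and 1.71, and the nearer stood 3.63 kb from the UAS-HA-Zld peak. A brat number was absent beside the UAS-HA-Zld peak and a UAS-HA-Zld number beside the second brat peak, but none beside the first. No peak in either list was found at VGlut, VGAT and Vmat, the vesicular transporters of glutamate, GABA and monoamines, or at ple and Ddc, which make dopamine.

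Of the 10 receptor genes, 7 had a peak in UAS-HA-Zld and 9 in brat, with 16 and 24 peaks. The shares of all protein-coding genes were 43.1% and 43.4%. By length class they ran from 35.2% and 34.9% under 5 kb to 80.1% and 82.1% from 50 kb. Of the receptor genes only nAChRalpha1, nAChRalpha5 and nAChRalpha6 are 50 kb or longer. The nicotinic acetylcholine receptor genes, which mediate fast excitation in the fly brain, held all 9 unmatched brat peaks at receptor genes. These lay at 5 of the 10 genes. Of all protein-coding genes 15.1% had one, from 11.2% under 5 kb to 51.8% from 50 kb. Among the 50 further genes, nAChRalpha4 had 3 unmatched brat and 2 unmatched UAS-HA-Zld peaks. nAChRbeta3 had 1 unmatched UAS-HA-Zld peak, and nAChRalpha2, nAChRalpha3 and nAChRbeta2 had no unmatched peak. nAChRalpha5 had the receptor peak with the most fragments in both lists, across its lower end, with 974 fragments and a fold of 9.55 in UAS-HA-Zld (2L, 14039751 to 14040546) and 829 fragments and a fold of 7.40 in brat (14039752 to 14040662). It had 3 peaks in UAS-HA-Zld, all shared, and 5 in brat. The unmatched brat peaks had 91 and 145 fragments, and 2 UAS-HA-Zld numbers were absent in the stretch that holds both.

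nAChRalpha6 had 2 weak peaks in UAS-HA-Zld, with folds of 2.17 and 2.15, and 5 in brat. The 3 unmatched brat peaks lay inside the gene (2L, 9849420 to 9850343, 9863587 to 9864045 and 9879721 to 9880170), with 184, 182 and 138 fragments and folds of 2.67, 3.35 and 4.44. In that stretch 2 UAS-HA-Zld numbers were absent. nAChRalpha7 had no peak in UAS-HA-Zld and 2 in brat. The stronger (X, 19349095 to 19349600) had 358 fragments and a fold of 9.28 and stood 0.861 kb outside the gene, and the weaker, 0.044 kb outside it, had a fold of 2.02, with 1 absent UAS-HA-Zld number beside both. nAChRbeta1 had 1 brat peak (3L, 4431194 to 4431645, 118 fragments, fold 2.47) and none in UAS-HA-Zld, where 2 numbers were absent. nAChRalpha1 had 2 shared peaks and 1 unmatched brat peak (3R, 24436010 to 24436371) with 114 fragments and a fold of 4.47, where no UAS-HA-Zld number was absent.

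Rdl, the GABA receptor subunit known for insecticide resistance, was the one receptor gene with more peaks in UAS-HA-Zld, 2 against 1. Its unmatched peak (3L, 9174780 to 9175766) had 507 fragments and a fold of 6.65, the highest fold among the 5 unmatched UAS-HA-Zld peaks at the 41 genes, and 2 brat numbers were absent beside it. The glutamate receptor genes showed shared peaks only. Nmdar2 had 4 peaks in each list, the strongest with folds of 4.23 in UAS-HA-Zld and 6.27 in brat. Nmdar1 had 2 in each, with folds of 3.20 and 1.55 in UAS-HA-Zld and 2.05 and 3.95 in brat. GluRIIB, a subunit of the neuromuscular receptor, had 1 in each, with folds of 1.77 in UAS-HA-Zld and 3.64 in brat, and its neighbour GluRIIA had none.

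Synaptic genes are long, and a longer gene gives a wider window for peaks. The 41 genes had a median length of 24.2 kb (2.64 to 225 kb), against 2.16 kb for all protein-coding genes. The shares weighted to the length classes of the 41, given above, stand against 58.5% of the 41 genes with a peak in UAS-HA-Zld and 68.3% in brat, and 9.76% with an unmatched peak in UAS-HA-Zld and 39.0% in brat. Summed over the 41 genes, the means of their length classes give 109 peaks in UAS-HA-Zld and 92.0 in brat, against 54 and 79 found. By length class, 35.2% of genes under 5 kb had a peak in UAS-HA-Zld and 34.9% in brat, with 4 and 4 of 7 of the synaptic genes. From 5 to 20 kb the shares were 63.1% and 66.2%, with 7 and 7 of 11, from 20 to 50 kb 72.5% and 73.2%, with 7 and 10 of 14, and from 50 kb 80.1% and 82.1%, with 6 and 7 of 9. Unmatched peaks lay at 11.9% of genes under 5 kb in UAS-HA-Zld and 11.2% in brat, against 0 and 0 of the 7. The shares were 20.1% and 22% from 5 to 20 kb, against 2 and 4 of the 11, and 55.7% and 51.8% from 50 kb, against 1 and 5 of the 9. The counts were furthest from the class mean for the 9 genes of 50 kb or longer, with a mean of 1.56 peaks in UAS-HA-Zld and 2.22 in brat, where all protein-coding genes of that length had 5.95 and 4.71. This class has no upper limit, and protein-coding genes reach 1966 kb against 225 kb for the longest of the 41. Lengths inside it are therefore not matched, which bears on its shares and means and on the 109 and 92.0 peaks. These shares describe 2 peak lists and are no test of the gene set.

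**Figure D3:**
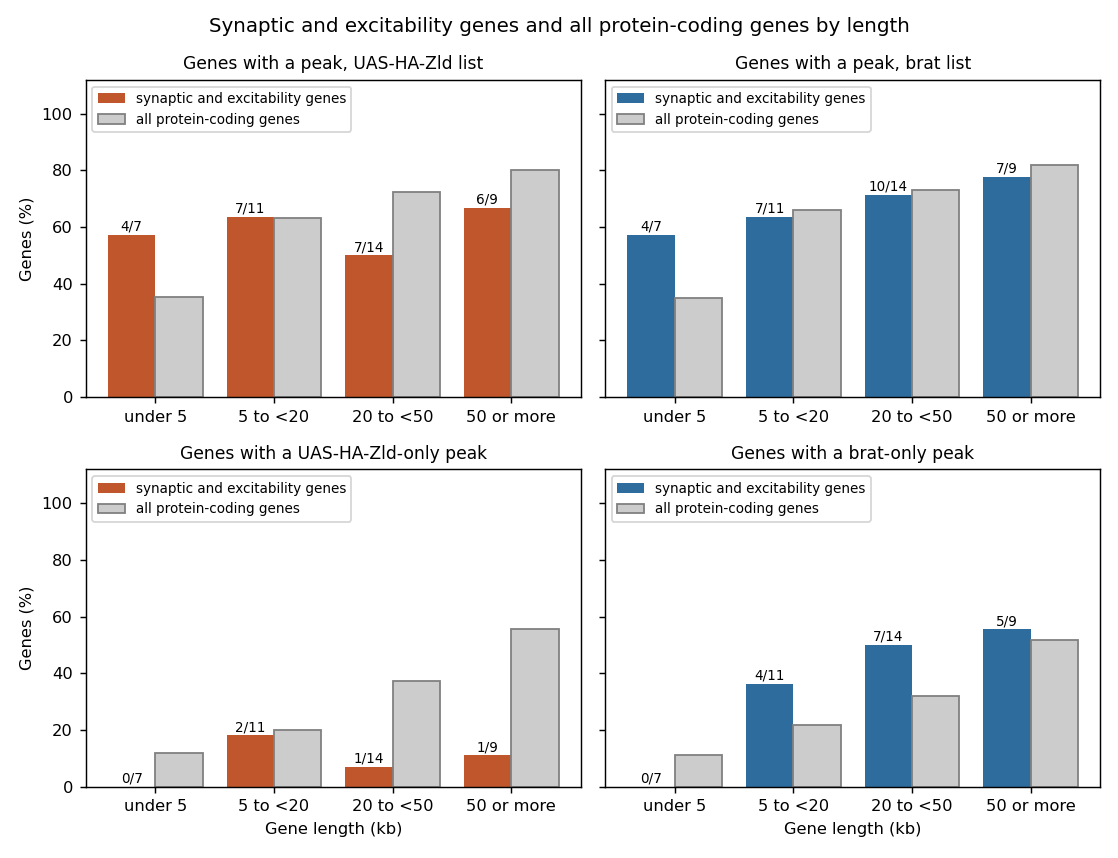
Share of genes (y axis, %) with a peak (upper panels) or an unmatched peak (lower panels) in the UAS-HA-Zld list (left) and the brat list (right), by gene length, for the 41 genes (coloured, with counts) and for all protein-coding genes (grey). At 20 to under 50 kb 1 of 14 of these genes has a UAS-HA-Zld-only peak, against 37.4% of all, and 7 of 14 have a brat-only peak, against 31.9% of all.

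Counted once each, 53 UAS-HA-Zld and 76 brat peaks lay at the 41 genes. Of these, 5 were unmatched in UAS-HA-Zld, 9.43% (Wilson 95% interval 4.10 to 20.3), and 29 in brat, 38.2% (28.1 to 49.4). Over whole lists the unmatched shares were 32.9% in UAS-HA-Zld (31.9 to 33.8) and 21.9% in brat (21.0 to 22.9). The intervals cover counting error only and treat peaks as independent. The 29 unmatched brat peaks fell in 16 stretches between neighbouring UAS-HA-Zld peaks, with 6 in 1 stretch at Cadps, so the intervals may be too narrow. The median fold of the peaks at these genes was 3.94 in UAS-HA-Zld, against 3.80 over that list, and 3.65 in brat, against 3.96. Among the stronger 50% of each list 2 of 30 peaks at these genes were unmatched in UAS-HA-Zld and 8 of 33 in brat, against 19.3% and 8.56% of all peaks of that strength. With both lists held to equal length, 4 of the 41 genes had an unmatched peak in UAS-HA-Zld and 20 in brat, which is 9.76% and 48.8%. Of all protein-coding genes 11.3% and 19.4% had one, and 26.5% and 37.7% at the length classes of the 41.

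The absent numbers move with this result. All 5 unmatched UAS-HA-Zld peaks at these genes lay where a brat number was absent, and 24 of the 29 unmatched brat peaks lay where a UAS-HA-Zld number was absent, against 51.8% and 61.5% of all unmatched peaks of the lists. With peaks beside an absent number left out, 0 of 43 UAS-HA-Zld peaks at these genes were unmatched, which allows a share of up to 6.98%, against 22.5% of that list, and such a UAS-HA-Zld peak lay at 7.84% of all protein-coding genes and 19.1% at the length classes of the 41. The brat share was then 12.5% (5 of 40, 5.46 to 26.1), against 11.7% of the brat list. Peaks were left out however far apart the flanking peaks of the other list stood, so those in wide gaps were left out more readily. These remaining shares therefore cannot decide whether the genes differ from the lists. An unmatched brat peak with no absent number beside it lay at 5 genes, fne, ChAT, VAChT, Gad1 and nAChRalpha1. Of all protein-coding genes 6.26% had one, and 13.9% at the length classes of the 41. If each absent number had covered 1 unmatched peak, 12 of the 29 would remain, among them 3 at Cadps. An absent peak may have covered more than 1, so fewer could remain. Without arm 4, 31.3% of the brat peaks at these genes were unmatched (20 of 64, 21.2 to 43.4), against 21.4% of the list.

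**Figure D4:**
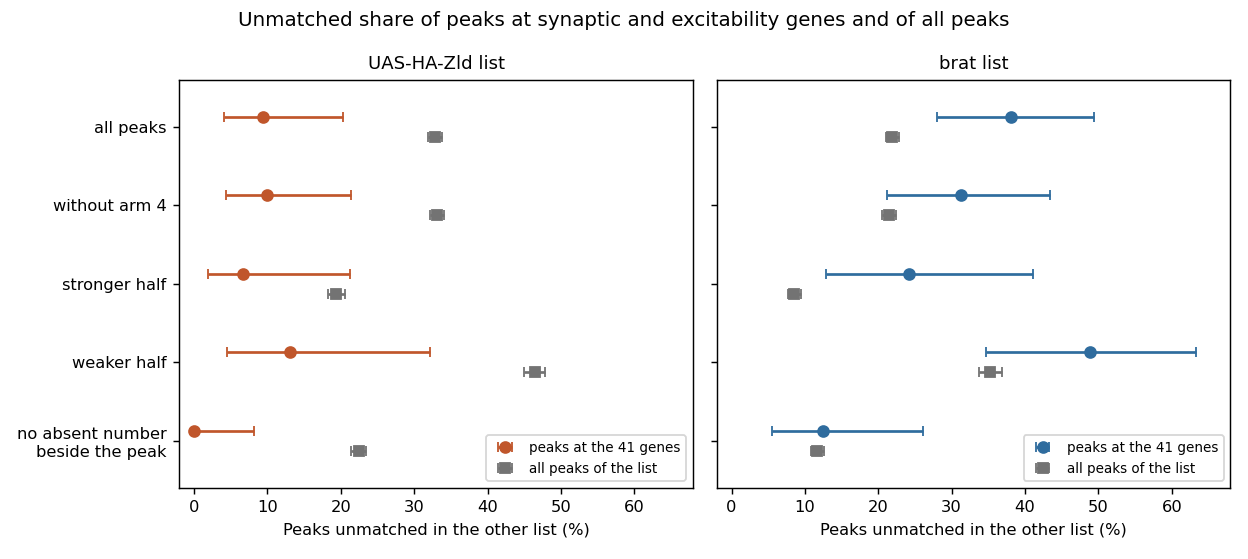
Share of peaks (x axis, %) that share no base with the other list, for peaks at the 41 genes (coloured circles) and all peaks (grey squares) of the UAS-HA-Zld list (left) and the brat list (right), with Wilson 95% intervals. The UAS-HA-Zld circles lie left of the squares in every row; the brat circles lie right of them, except that they meet where no number of the other list is absent beside the peak (12.5% and 11.7%).

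The genes were not chosen by the position of their peaks, but peaks were admitted by lying in or near these genes. Their median length was 24.2 kb, against 2.16 kb for all protein-coding genes. Distance to a gene end can depend on gene length, so the values below are a description, and the part of length was not tested. The strongest summit was within 500 bp of an end of any annotated gene for 1 of the 5 unmatched UAS-HA-Zld peaks and for 7 of the 29 unmatched brat peaks (24.1%), against 22.2% and 46.3% of all unmatched peaks of those lists. Their median distance to a gene end was 3065 bp in UAS-HA-Zld and 2048 bp in brat, against 2653.5 and 627.5 bp over the lists. Of the shared peaks at these genes, 41.7% in UAS-HA-Zld and 38.3% in brat stood that near an end, against 42.1% and 43.1% over the lists. The protein-coding gene end nearest to the summit was that of the gene itself for 38 of the 54 peaks counted in UAS-HA-Zld and 58 of the 79 in brat. The others may belong to neighbours such as Glut1, CG13928, ens, Dyrk3, sta or Itpr. Gene strand was not used here, so start sites and 3′ ends are not distinguished.

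A list of 50 further synaptic and excitability genes had nearly equal counts in the lists. A peak was found at 26 in UAS-HA-Zld and 27 in brat, with 49 peaks in each list. These are 52% and 54% of the 50, against 61.7% and 63.3% of all protein-coding genes weighted to their lengths, whose class means would give 97.9 peaks in UAS-HA-Zld and 85.9 in brat. The longest length class, which has no upper limit, bears on these values too. Unmatched peaks lay at 11 in UAS-HA-Zld and 13 in brat, which is 22.0% and 26.0%, where the weighted shares of all protein-coding genes were 26.5% and 25.4%. By −log10 q, the strongest peak in UAS-HA-Zld was at nAChRalpha3, another nicotinic subunit gene (X, 8273351 to 8275468, fold 17.8, shared). The brat peak that overlaps it had no summit in the window. The 1 brat peak counted for nAChRalpha3 lay elsewhere (8366846 to 8367217, fold 2.82). Next in UAS-HA-Zld came sei, the Erg potassium channel gene, with a fold of 9.79 in UAS-HA-Zld and 26.0 in brat. It was followed by Rbp, an active zone gene, whose peak (3R, 15380838 to 15381365, fold 7.55) was unmatched. After these came lap, the clathrin adaptor AP180, with folds of 5.26 in UAS-HA-Zld and 9.07 in brat.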

How the data were processed

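CUT&RUN peak lists from brains of L3 larvae were used, 1 per condition, each for 2 samples. The submitters' processing notes name build dm6 and the tools MACS2, Bowtie2 and deepTools 3.5.1. How replicates were combined, the control and any filter are not known from the labels. Each deposited list has narrowPeak columns with a whole-number score, a fold enrichment, which is a ratio at the summit, −log10 of the p-value and q-value, and the summit offset. These are the authors' values. The smallest −log10 q was 1.30 in UAS-HA-Zld and 1.31 in brat.

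A peak was 1 distinct interval. It counted for a gene when any of its summits lay in the gene or within 2 kb of an end. Values given are those of its strongest summit there. Matching needed 1 shared base. The pileup and background were solved from fold and −log10 p under MACS2's Poisson test, each with 1 added. For 100% of summits the pileup was a whole number to a relative tolerance of 0.0001. Counting, matching and solving were tested on simulated data. Genes came from the RefSeq table of Release 6 plus ISO1 MT, with no strand or sequence. Peaks at start windows and the Zld motif were planned and not analysed here, and no sequence is shown.

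Length classes were under 5 kb, 5 to 20, 20 to 50 and 50 kb or longer. Wilson 95% intervals were used, and a count of 0 allows 3 counts. With 1 list per condition no test was run. The genes and lists were chosen with earlier results of these data known. Genes described in full were up to 3 of each role group with the highest −log10 q in UAS-HA-Zld, those with a peak in 1 list and those with 2 or more unmatched peaks. Of the further genes the 4 with the highest −log10 q in UAS-HA-Zld are named. Python 3.11.15, numpy 2.4.6, pandas 2.3.3 and scipy 1.17.1 were used. The S2 and IgG samples were not analysed here.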

Additional observations from a re-analysis of the deposited data

How the results depend on the processing

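The 12 counts were recomputed under 15 alternatives, 10 planned and 5 added after the data were seen, giving 148 values, of which 134 stayed within 1.5 times the reported count. The 41 genes had fewer unmatched peaks in UAS-HA-Zld than in brat under all 15, fewer genes with one under the 14 that bear on that count, fewer peaks under 11 and fewer genes with a peak under 10. Counting only unmatched peaks with no absent number of the other list beside them (an added alternative) left 0 genes and 0 peaks in UAS-HA-Zld, and 5 genes and 7 peaks in brat, and among the 50 further genes 6 in UAS-HA-Zld and 7 in brat. A window of 5 kb gave 8 genes with 10 UAS-HA-Zld-only peaks. Counting a peak only for the gene with the nearest end gave 3 UAS-HA-Zld-only peaks, and 7 further genes with a brat-only peak. With summits in place of peaks the totals were 100 in UAS-HA-Zld and 134 in brat. Summits inside the gene only gave 17 further genes with a UAS-HA-Zld peak and 6 with an unmatched one. By construction these settings add or drop peaks, and any other cause was not tested. Start windows and motifs were not run. No replicate could be left out, and depth per replicate is unknown. No paired analysis was possible because each condition has 1 peak list and the result comes from no test.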

Other observations

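Among the 50 further synaptic and excitability genes, 2 lie on arm 4 with Cadps and unc-13. mGluR, the metabotropic glutamate receptor gene, had 0 peaks in UAS-HA-Zld and 3 in brat, all 3 unmatched. Syt7, a synaptotagmin gene, had 1 peak in UAS-HA-Zld and 3 in brat, 2 of them unmatched. Both were picked out with their values known.

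Also picked out that way, the gene with the most UAS-HA-Zld peaks in that list was Ca-beta, a subunit of voltage-gated calcium channels, with 7 peaks in UAS-HA-Zld and 5 in brat. It had unmatched peaks in both lists, 3 in UAS-HA-Zld and 2 in brat.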
